A study of Homo sapiens with 4 samples.

Results

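The 10 genes described here belong to the unfolded protein response and the integrated stress response. They are ATF4, DDIT3, XBP1, ERN1, EIF2AK3, ATF6, ASNS, CHAC1, TRIB3 and SESN2, chosen by name from the 19970 protein-coding genes of GENCODE 44 on chromosomes 1 to 22 and X. MTF-1, the zinc finger transcription factor that responds to metals, was mapped by CUT&RUN, in which an antibody tethers a nuclease to the bound protein and the released DNA is sequenced. The cells were MDA-MB-231, an established human breast cancer line. Control cells (2 libraries) were passaged in normal medium. The cells called cadmium-treated here (2 libraries) were a line selected by serial passaging in cadmium sulfate. The dose was raised to 10 µM after 10 passages at a lower dose, and at least 10 further passages followed. The paper calls these cells cadmium resistant, so the comparison is with a long-selected line and not with a short treatment. The labels name no other genotype or agent, and do not say whether the cadmium-treated cells were clonal.

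The authors merged the 2 libraries of each condition before peak calling, so there is 1 peak list for control cells and 1 for cadmium-treated cells. A peak is a stretch of DNA called as enriched, and the lists give its start and end but no height or read count. The depth of the libraries and the spread between replicates are therefore unknown here, no test between the conditions was possible, and every difference below is one between these 2 lists. The paper's methods name no control antibody (IgG) or input library for peak calling, and how specific the peaks are for MTF-1 was not tested here. The control list held 69299 peaks over 130.4 Mb and the cadmium list 60130 peaks over 90.94 Mb, so the cadmium list covered 0.697 times as much sequence before any gene is considered. Each gene was examined in a window from 20 kb before to 20 kb after it. A control peak that shared no base with a cadmium peak is called lost, a cadmium peak that shared no base with a control peak is called gained, and the others are called conserved.

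When unfolded proteins build up in the endoplasmic reticulum, sensors in its membrane signal to the nucleus. ERN1 encodes IRE1, which splices the mRNA of the transcription factor XBP1, EIF2AK3 encodes PERK, a kinase that phosphorylates the translation factor eIF2α, and ATF6 is cut from the membrane to become a transcription factor itself. Phosphorylated eIF2α lowers general translation and favors that of ATF4, which activates DDIT3 (CHOP), ASNS, CHAC1, TRIB3 and SESN2. Kinases that sense amino acid shortage, heme and double-stranded RNA feed into the same step, and this wider network is the integrated stress response. Cadmium is among the agents known to disturb protein folding in the endoplasmic reticulum.

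All 10 genes had an MTF-1 peak within 1000 bp of an annotated transcript start in control cells, and all 10 had such a peak in cadmium-treated cells. Among all protein-coding genes the background was 73.4% in control cells, 71.7% in cadmium-treated cells and 70.2% in both. A change of status was rare in general, with 641 genes (3.21%) having a start-site peak in control cells only and 300 in cadmium-treated cells only, and none of the 10 genes was among them. The canonical start, that of the main transcript of each gene, lay inside a peak for all 10 genes in both lists, against 66.5% of protein-coding genes in the control list and 64.5% in the cadmium list.

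**Figure D1:**
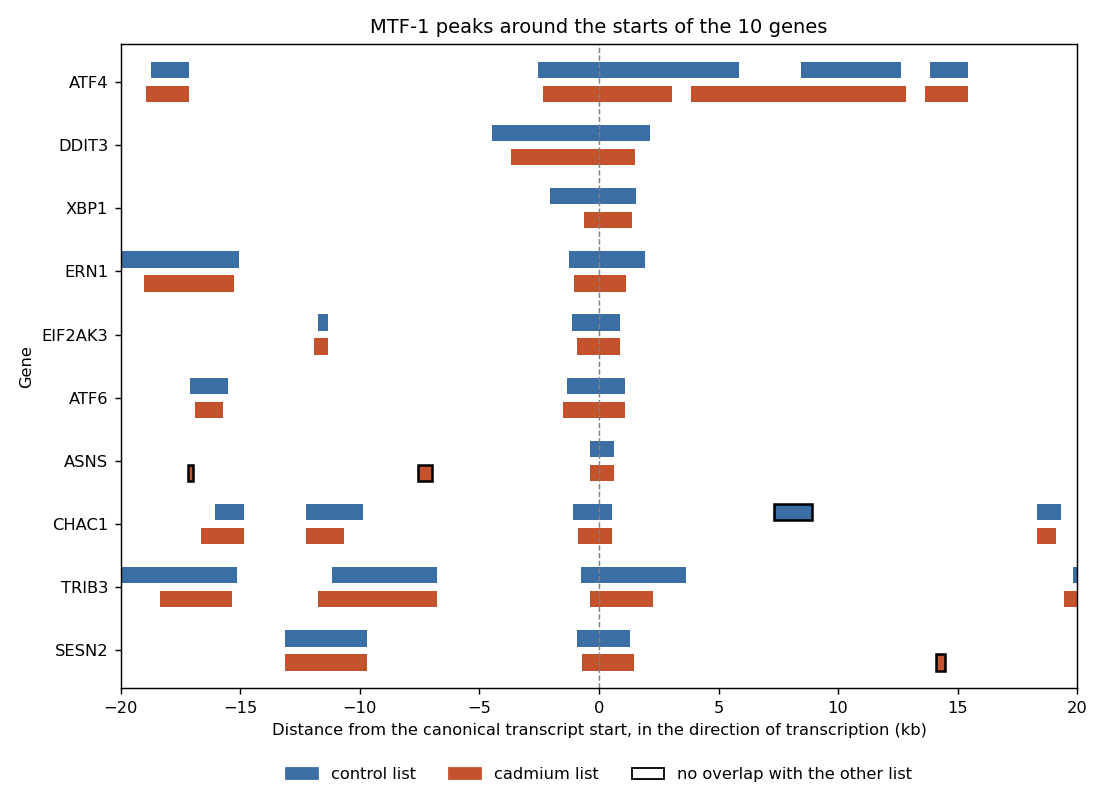
MTF-1 peaks within 20 kb of the canonical start of each gene, with distance in kb along the direction of transcription on the horizontal axis and 1 row per gene (blue, control list; red, cadmium list; black outline, no overlap with the other list). Every gene has a blue and a red bar across its start, and the outlined bars (ASNS, CHAC1 and SESN2) are centred 7292 bp or more away from it; peaks farther than 20 kb from the start are not drawn.

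The width of the peak at the canonical start differed more than its presence. It was narrower in the cadmium list for 7 genes, of equal width for ASNS and SESN2, and wider for ATF6. For EIF2AK3, CHAC1 and ATF6 the difference was only 200 bp, 1 bin of the peak caller. Of the 12641 protein-coding genes whose start lay inside a peak in both lists, 61.1% had a narrower peak in the cadmium list. The median width over the 10 genes was 2799 bp in the control and 2199 bp in the cadmium list, and over those 12641 genes it was also 2799 and 2199 bp.

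ATF4 and DDIT3, both transcription factors, had the widest peaks at their starts in both lists. ATF4 (ENSG00000128272, chr22:39519695-39522683, plus strand), the factor on which the eIF2α kinases converge, lay entirely inside a peak of 8399 bp in control cells, from 39518001 to 39526399. In cadmium-treated cells it lay inside a peak of 5399 bp, from 39518201 to 39523599, which also covered 100% of the gene. The sequence downstream remained occupied but was divided differently. The control list had a gap from the end of this peak to a peak of 4199 bp at RPS19BP1, from 39529001, whereas the cadmium list had a single peak of 8999 bp from 39524401 to 39533399. The whole stretch from 39518001 to 39533399 carried 12598 bp of control peaks and 14398 bp of cadmium peaks, 11597 bp of which were covered by both. Peaks at MIEF1, the neighbor upstream, and beyond RPS19BP1 were 1599 bp wide in the control and 1799 bp wide in the cadmium list.

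DDIT3 (ENSG00000175197, chr12:57516588-57521737, minus strand) encodes CHOP, which promotes cell death under prolonged stress. Its window held a single peak, of 6599 bp in control cells (57518401 to 57524999) and 5199 bp in cadmium-treated cells (57519001 to 57524199), and the smaller peak lay wholly inside the larger. The peak also spanned the start of MBD6, which was the closest coding start to its centre in both lists, so it cannot be assigned to DDIT3 alone.

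XBP1 (ENSG00000100219, chr22:28794555-28800597, minus strand) likewise had a single peak in its window. It measured 3599 bp in control cells (28799001 to 28802599) and 1999 bp in cadmium-treated cells (28799201 to 28801199), a ratio of 0.555. Almost all of the difference was upstream of the start, where the peak reached 2030 bp in the control and 630 bp in the cadmium list. Downstream it reached 1568 and 1368 bp. The annotated start closest to the centre of the control peak, 91 bp away, was that of a transcript of the long noncoding RNA gene ENSG00000226471, and it was covered in both lists.

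The XBP1 peak covered an ER stress element in both lists. This element is bound by ATF6 with the CCAAT factor NF-Y, and its consensus was searched on both strands with no mismatch allowed. Of 35116 RefSeq promoters of 300 bases on GRCh38.p14, 0.0769% contained it, and XBP1 was the only one of the 10 genes with a match. The element was not particular to XBP1 within the pathway. Within 500 bp of the canonical start it was in 7 of 69 further pathway genes, described below, and in 0.145% of protein-coding genes. The XBP1 match at 28800603 to 28800621 began 52 bp upstream of the canonical start, counted from its 5′ end on the gene's strand as for all matches below. It is shown in capitals in the 200 bases upstream of the outermost XBP1 start. These bases were read on the gene's strand from chr22:28800598-28800797 (minus strand, hg38) and are shown because they lay inside the peak of both lists.
XBP1: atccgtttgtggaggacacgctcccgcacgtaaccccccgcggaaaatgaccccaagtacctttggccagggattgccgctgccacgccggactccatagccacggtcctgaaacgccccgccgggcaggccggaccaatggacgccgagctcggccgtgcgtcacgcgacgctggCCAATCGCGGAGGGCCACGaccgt

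Of the sensor genes, ERN1 (ENSG00000178607, chr17:64039080-64130819, minus strand) had a peak of 3199 bp at its canonical start in control cells and 2199 bp in cadmium-treated cells, with most of the difference downstream (1943 against 1143 bp from the start). EIF2AK3 (ENSG00000172071, chr2:88556741-88691518, minus strand) had peaks of 1999 and 1799 bp, which also held the start of the divergent transcript EIF2AK3-DT. ATF6 (ENSG00000118217, chr1:161766298-161977574, plus strand) had peaks of 2399 and 2599 bp, shared with its divergent transcript ATF6-DT. It was the only gene of the 10 with a wider start peak in the cadmium list, by 200 bp, which is 1 bin of the peak caller.

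Among the ATF4 targets, the peak at the start of ASNS (ENSG00000070669, chr7:97851677-97872542, minus strand), which encodes asparagine synthetase, ran from 97871801 to 97872799 in both lists, identical to the base. SESN2 (ENSG00000130766, chr1:28259518-28282491, plus strand), a stress-inducible inhibitor of mTORC1 signaling, had a peak of 2199 bp in both lists that lay 200 bp farther downstream in the cadmium list. CHAC1 (ENSG00000128965, chr15:40952962-40956512, plus strand), which degrades glutathione, had peaks of 1599 and 1399 bp with the same downstream edge. TRIB3 (ENSG00000101255, chr20:362835-397559, plus strand), a pseudokinase that restrains ATF4 and CHOP, had the largest difference of the ATF4 targets, with 4399 bp in control and 2599 bp in cadmium-treated cells.

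**Figure D2:**
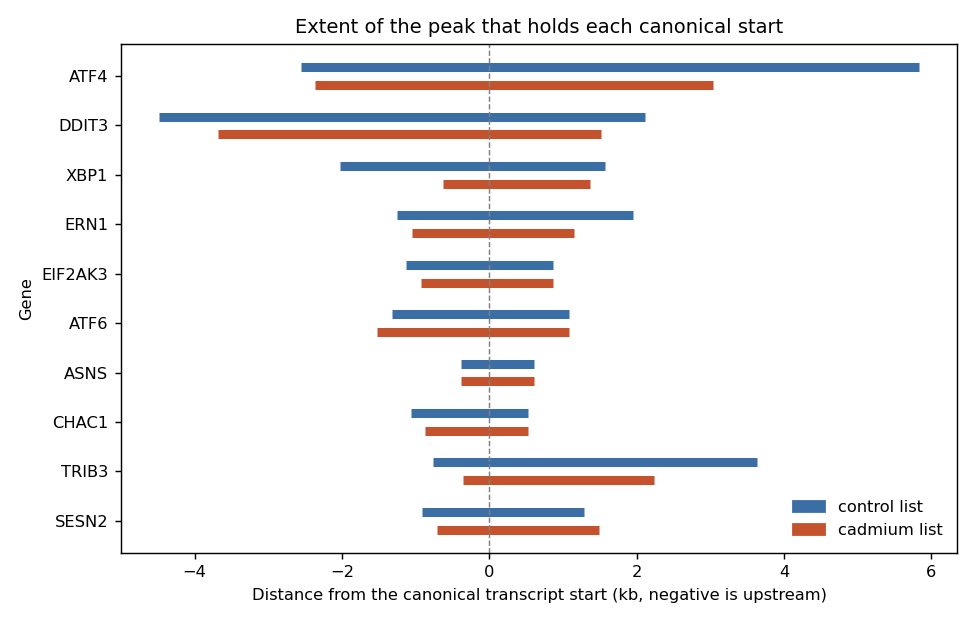
Extent of the peak that holds the canonical start of each gene, in kb from the start (negative is upstream; blue, control list; red, cadmium list; 1 bar per list). The red bar is shorter for 7 genes, ends at the same positions for ASNS, and is longer by 200 bp for ATF6.

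The DNA string bound by dimers of ATF4 and C/EBP factors was searched as TGATGNAA on both strands within 500 bp of the canonical start. It was found in 5 of the 10 genes, DDIT3, ASNS, CHAC1, TRIB3 and SESN2, which are those that ATF4 is known to activate. Of the 69 further pathway genes described below, 14 had it, as did 7.46% of all protein-coding genes. The restriction to these 5 genes holds for the distance of 500 bp only. Farther out, the string lay inside the start peak of both lists at XBP1 (1126 and 1195 bp downstream). The same was true at EIF2AK3 (88628317 to 88628324, upstream of the start). ATF4 had it 3782 bp downstream, inside the start peak of the control list only. Matches beyond 500 bp are not printed. The 7 matches within 500 bp in the 5 genes are shown, and each one lay inside the start-site peak of both lists. They are printed as 30 bases on the strand of the gene, with the match in capitals.
DDIT3, 306 bp upstream, chr12:57520802-57520831: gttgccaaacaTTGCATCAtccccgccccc
ASNS, 68 bp upstream, chr7:97872458-97872487: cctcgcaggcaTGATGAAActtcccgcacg
CHAC1, 209 bp upstream, chr15:40953251-40953280: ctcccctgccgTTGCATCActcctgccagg
SESN2, 296 bp upstream, chr1:28259211-28259240: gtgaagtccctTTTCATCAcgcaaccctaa
TRIB3, 132 bp downstream, chr20:380881-380910: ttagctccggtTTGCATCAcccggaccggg
TRIB3, 165 bp downstream, chr20:380914-380943: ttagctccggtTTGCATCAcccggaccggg
TRIB3, 198 bp downstream, chr20:380947-380976: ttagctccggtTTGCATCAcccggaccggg
The 3 TRIB3 matches are copies of the same 30 bases. They lay downstream of the GENCODE canonical start (380760). They were upstream of the 3 RefSeq promoters of TRIB3, which began at 381045, 381056 and 381093, and so upstream of the RefSeq starts. Both edges of the TRIB3 start peak moved inward in the cadmium list, to 359 bp upstream and 2239 bp downstream from 759 and 3639 bp, and all 3 copies stayed inside it.

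DDIT3 also had an AP-1 string (TGACTCA or TGAGTCA), the sequence bound by FOS and JUN dimers, 241 bp upstream of its canonical start at chr12:57520738-57520767, inside the peak of both lists.
DDIT3, AP-1: cgcgcgcgcgcaTGACTCAcccacctcctc
It was the only one of the 10 genes with this string within 500 bp of the start, and 9.66% of protein-coding genes had it. The core of the metal response element, the sequence MTF-1 itself recognizes (TGCACNC or TGCGCNC), was found in 7 of the 10 genes and in 70.0% of protein-coding genes, so its presence does not set these promoters apart. The forkhead strings (ATAAACA or ATAAATA, or either of them with G as the first base, on both strands) were found at ATF6 only, against 27.6% of protein-coding genes, and the XBP1 and ATF6 core TGACGTG was found at none, against 4.89%. Only the distance of 500 bp was tried for these counts. Farther out, AP-1 strings lay inside the start peak of both lists at ATF4 (513 and 1175 bp downstream) and TRIB3 (1710 and 2181 bp downstream). XBP1 had an AP-1 string 1383 bp downstream, inside the start peak of the control list only.

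The 10 windows together held 40 control and 41 cadmium peaks, and no peak was in more than 1 window. Of the control peaks 6 were lost, or 15.0%, against 27.9% of all control peaks. Of the cadmium peaks 7 were gained, or 17.1%, against 15.1% of all cadmium peaks. Lost peaks were in the windows of 4 of the 10 genes, close to the 46.1% of all protein-coding gene windows that held a lost peak. Gained peaks were also in the windows of 4 genes, and 31.2% of all protein-coding gene windows held a gained peak. ATF4, DDIT3, XBP1 and TRIB3 had neither. The closest coding start was that of a neighboring gene for 16 control and 17 cadmium peaks, so a window describes the neighborhood of a gene as well as the gene.

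None of the 13 lost and gained peaks could hold a canonical start, since each of these starts lay inside a peak of both lists. The gained peaks were narrower than the median peak. Lost peaks were 399 to 1599 bp wide and gained peaks 199 to 599 bp wide, against a median of 1599 bp for all control and 1799 bp for all cadmium peaks of the 10 windows. Over the whole lists the median width was smaller, 1399 bp for control and 999 bp for cadmium peaks. The widths of all lost and all gained peaks of the series were not compared here. The centres of the 13 peaks lay 7292 to 101144 bp from the canonical start for gained peaks and 8129 bp or more for lost peaks. By annotation, 4 lost and 6 gained peaks were in introns, 3 of the latter in an intron of the gene itself, and 1 peak of each class was intergenic. The remaining lost peak lay over an alternative start inside ERN1.

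**Figure D3:**
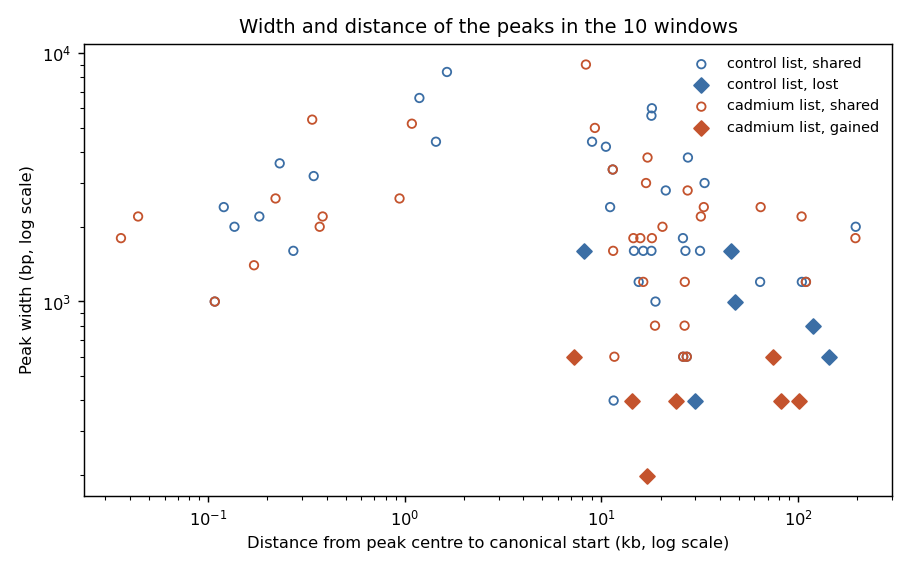
Width of each of the 81 peaks in the 10 windows (vertical axis, bp, log scale) against the distance from its centre to the canonical start (horizontal axis, kb, log scale). Open circles are conserved peaks and filled diamonds are lost (blue) or gained (red) peaks; the diamonds sit at 7 kb or more and at widths of 1599 bp or less.

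The windows of ERN1, EIF2AK3 and ATF6, the longest of the 10 genes, held most of these changes, 5 of the lost and 4 of the gained peaks. In ERN1 the control list had lost peaks from 64081801 to 64082799, over an internal start, and from 64084001 to 64085599, in an intron. The cadmium list had a gained peak from 64055001 to 64055599, in an intron with its edge 234 bp from another internal start, and a gained peak from 64028801 to 64029199, in intergenic sequence for which ICAM2 has the closest start. In EIF2AK3 a peak from 88657201 to 88657599 was lost. It lay in an intron of the annotated gene, but its centre was 29936 bp upstream of the canonical start. Peaks from 88603201 to 88603599 (an intron of the gene) and from 88545201 to 88545599 (an intron of ENSG00000225420) were gained. ATF6 had 2 lost peaks in its introns, one of them from 161884601 to 161885399, and no gained peak.

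Of the targets, ASNS had 2 gained peaks and no lost peak. They lay upstream of the gene in an intron of the long noncoding RNA ENSG00000284707, and the nearer ran from 97879401 to 97879999, with its centre 7292 bp from the canonical start. SESN2 gained a peak from 28273601 to 28273999 in one of its introns, and CHAC1 lost a peak of 1599 bp from 40960801 to 40962399, downstream of the gene.

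AP-1 strings were present in the central 500 bp of 2 of the 7 gained peaks, both at ASNS, and of 2 of the 6 lost peaks, at ERN1 and ATF6. Over the whole lists 32.6% of gained and 24.5% of lost peaks had the string. A gained and a lost peak are shown around the string nearest the peak centre, on the plus strand of hg38, with AP-1 strings in capitals, as examples of sites at which this sequence and a change of status coincide in these genes.
ASNS, gained, chr7:97879636-97879835: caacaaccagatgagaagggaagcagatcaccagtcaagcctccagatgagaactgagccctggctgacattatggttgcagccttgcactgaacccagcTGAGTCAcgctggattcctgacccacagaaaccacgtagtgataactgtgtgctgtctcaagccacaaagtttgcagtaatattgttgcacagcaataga
ERN1, lost, chr17:64084567-64084766: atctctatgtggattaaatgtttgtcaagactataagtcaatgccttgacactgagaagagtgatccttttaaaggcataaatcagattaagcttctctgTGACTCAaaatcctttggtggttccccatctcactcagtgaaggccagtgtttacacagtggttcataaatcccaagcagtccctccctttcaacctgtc
Forkhead strings were in 4 of the 6 lost and 3 of the 7 gained peaks, against 41.1% of all lost and 25.5% of all gained peaks. With so few peaks these counts describe the individual sites only.

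The total sequence covered in the 10 windows was 95780 bp in the control and 83359 bp in the cadmium list, a ratio of 0.87. The ratio was below 1 for 6 genes and above 1 for 4. The median ratio of the 10 windows was 0.77, and that of all protein-coding gene windows with a control peak was 0.75. A window was called lower or higher when the lists differed by more than 1.5-fold. XBP1 was lower, with 3599 bp in the control and 1999 bp in the cadmium list, and ASNS was higher, with 999 and 1797 bp. Of 18115 gene windows with any peak, 38.0% were lower and 7.28% higher by this rule. Neither call was left at a threshold of 2-fold. XBP1 was also lower in a window of 5 kb, but not in its gene body or at 50 kb, and ASNS was within 1.5-fold in all 3 of these windows. The start-site peak of ASNS was the same in both lists, and its added bases were those of the 2 gained peaks.

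**Figure D4:**
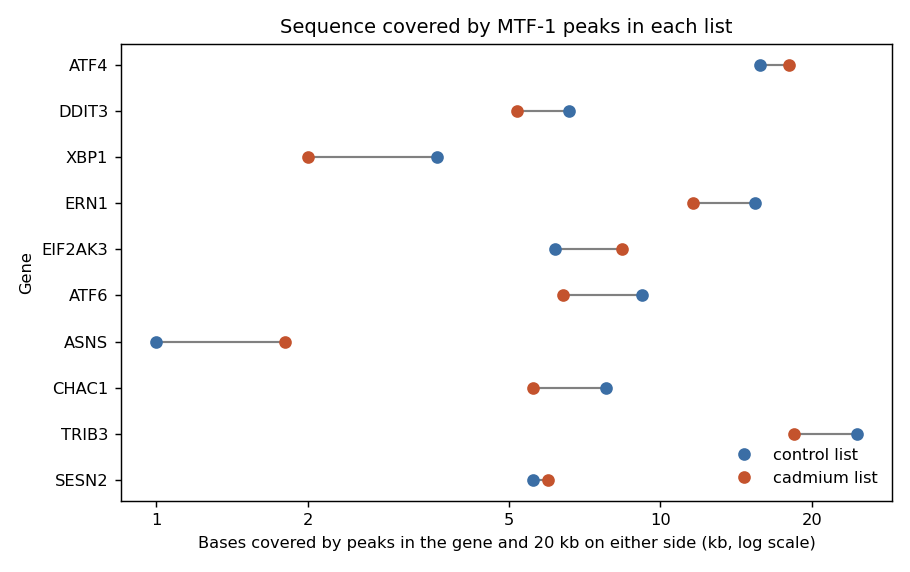
Bases covered by peaks in the window of each gene (horizontal axis, kb, log scale), in the control list (blue) and the cadmium list (red), with 1 value per list and no replicates. The red point is to the left of the blue one for 6 genes and to the right for ATF4, EIF2AK3, ASNS and SESN2.

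The other 8 windows differed by less than 1.5-fold. ATF4 had 15796 bp of peaks in the control and 17996 bp in the cadmium list (36.7% and 41.9% of its window), the largest share of the 10 windows in both lists. TRIB3 had 24593 and 18393 bp, and DDIT3 had 6599 and 5199 bp. Among the sensors, ERN1 had 15413 and 11593 bp and ATF6 had 9194 and 6396 bp, while EIF2AK3 had 6194 and 8393 bp. Its window included the peak at the start of the neighbor RPIA, where an outlying EIF2AK3 transcript also begins, with 1199 bp in the control and 2399 bp in the cadmium list. CHAC1 had 7795 and 5596 bp, and its lost peak had 1599 bp, and SESN2 had 5598 and 5997 bp.

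**Figure D5:**
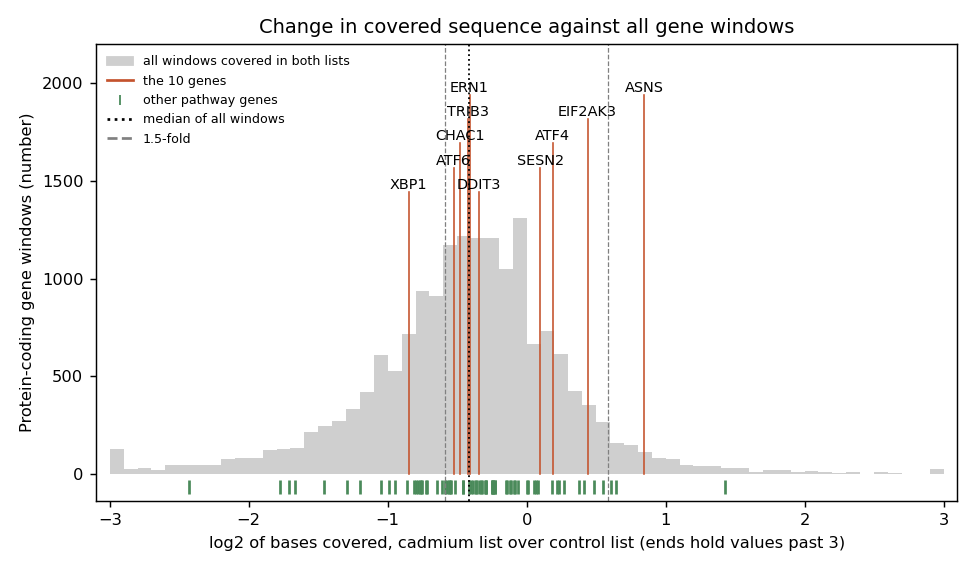
Log2 ratio of covered bases, cadmium list over control list, for all protein-coding gene windows covered in both lists (grey, number of windows), with the 10 genes as labeled lines and the 69 other pathway genes as ticks. The dotted line is the median of all windows with a control peak (a ratio of 0.75). The dashed lines mark 1.5-fold, and of the 10 genes XBP1 lies beyond the left and ASNS beyond the right dashed line.

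At the level of single sites, the 10 windows held 33 conserved sites, each made of touching peaks of both lists. Of these, 17 (51.5%) were covered over fewer bases by the cadmium list, 6 (18.2%) over the same number and 10 (30.3%) over more. Among all 48627 conserved sites of the series the shares were 58.0%, 18.3% and 23.7%. TRIB3 had 7 conserved sites. Those at its alternative upstream start (5599 and 2999 bp) and at its canonical start (4399 and 2599 bp) were shorter in the cadmium list, and the site in the intron between them was longer (4399 and 4999 bp).

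A further 69 genes of the pathway were examined in the same way. An MTF-1 peak was near a start in both lists for 67 of them, against 70.2% of all protein-coding genes. NUPR1, a stress-induced chromatin protein that cooperates with ATF4, had a start-site peak in control cells only. Its window had 4196 bp of control peaks and 4397 bp of cadmium peaks, with 2 lost peaks and 1 gained peak. FGF21, named here because it was the remaining gene, had no start-site peak in either list. Windows were lower in the cadmium list past 1.5-fold for 22 of the 69 genes and higher for 3, against 38.0% and 7.28% of all gene windows with a peak. The median ratio was 0.788, against 0.75 over all protein-coding gene windows with a control peak. Lost peaks numbered 45 and gained peaks 30. The counts by role were 6 lower and 0 higher of 11 genes for eIF2α itself, its kinases, its phosphatase subunits and the eIF2B subunits, 3 and 0 of 10 partner transcription factors and processing proteases, 5 and 1 of 20 targets of the ATF4 pathway, 5 and 1 of 16 chaperones and folding enzymes, and 3 and 1 of 12 genes of ER-associated degradation.

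The 3 largest decreases and 3 largest increases in covered bases among these genes were as follows. The window of PDIA4, a protein disulfide isomerase, had 26533 bp of control peaks and 7735 bp of cadmium peaks. That of HYOU1, an ER chaperone, had 19206 and 6997 bp, and that of STC2, a secreted glycoprotein induced through PERK and ATF4, had 21271 and 10270 bp. In the other direction, the window of SLC7A5, a transporter of large neutral amino acids, had 14594 and 22174 bp, that of HERPUD1, which acts in ER-associated degradation, had 3462 and 9319 bp, and that of CRELD2, a secreted ER stress protein, had 12995 and 18197 bp, which is within 1.5-fold. The third window called higher was that of MANF, a secreted ER stress protein, with 6398 and 9996 bp, named here after its values were seen. Each of these genes had a start-site peak in both lists.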

How the data were processed

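MTF-1 was profiled by CUT&RUN in 2 control and 2 cadmium libraries of MDA-MB-231 cells. The authors aligned the reads (Bowtie2, hg38), pooled the replicates of a condition (SAMtools 1.8) and used Epic2 for peak calling, while the submitters' processing notes list SICER 0.0.50. The deposited lists hold peak starts and ends in base pairs, in bins of 200 bp, with no count, score or signal.

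Genes and transcript starts were taken from GENCODE 44. Windows, overlaps (1 shared base), covered bases and string searches (500 bp around the peak centre, 500 bp on either side of the canonical start, and RefSeq promoters from 250 bases before to 50 after the start, which matched all 10 genes) were computed with numpy 2.4.6, pandas 2.3.3 and pysam 0.24.0, and were checked on simulated peaks. No test between conditions was made, since each has 1 list. The genes, lists and strings were chosen with earlier results of these data known. Of the other pathway genes, those whose start-site status differed and the 3 largest decreases and increases in covered bases were named. The sequences to print were chosen after the matches were seen, and those of 2 peaks are not reported here. Expression, accessibility and coverage data were not used here.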

Additional observations from a re-analysis of the deposited data

How the results depend on the processing

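No paired analysis was possible because the replicates of each condition were merged before peak calling, and leaving out a replicate was not run for the same reason. Of 122 values recomputed under an alternative, 81 stayed within 1.5 times the reported value. The count of 10 genes with a start-site peak was the same in both lists under all 6 alternatives tried for it.

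The size of the window moved most of the others. In the gene body alone, at 5 kb and at 50 kb on either side, the control list covered 41175, 61647 and 165121 bp and the cadmium list 34577, 50660 and 139314 bp, with 19, 20 and 69 conserved control peaks, 19, 21 and 70 conserved cadmium peaks and 3, 3 and 16 gained peaks. Lost peaks numbered 10 at 50 kb. Windows called lower numbered 2 (ERN1 and ATF6) in the gene body and 3 (XBP1, ERN1 and CHAC1) at 5 kb, and windows called higher numbered 0 in both. At 50 kb the window called lower was ATF6 and the window called higher EIF2AK3. Among the 69 other pathway genes lost peaks numbered 20, 27 and 72 (45 as reported) and gained peaks 11, 13 and 56 (30 as reported) with these windows, and 6 gene bodies were higher, against 3 windows as reported.

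With peaks of at least 5 bins (1000 bp, listed 1 base shorter) there were 0 gained peaks, 2 lower windows (XBP1 and CHAC1) and 0 higher, and 7 peaks had AP-1 and 10 forkhead strings, against 12 and 20 of the 81 peaks. With a 2-fold threshold 0 windows were lower and 0 higher. When 50% of a peak had to be covered, 102 peaks of the other pathway genes were lost instead of 45. With 1 start per gene the median distance of control peaks to the start was 17961 bp instead of 10990 bp. Searching whole peaks gave 26 peaks with AP-1 (12 in the central 500 bp), 28 with ATF4-C/EBP (12), 2 with ER stress element (1), 8 with XBP1/ATF6 core (3) and 49 with forkhead strings (20).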
